A study of Mus musculus with 27 samples.

Results

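The comparison described here sets the livers of the 9 mice named Dex against those of the 9 mice named Veh, 18 of the 27 mice of the series. Its members were chosen by sample name alone: the arrays titled Dex1 to Dex9 against those titled Veh1 to Veh9, over every probe set of the array other than the manufacturer's control probes. That left 12422 of 12488 probe sets, of which 6784 were bright enough to be tested, for 5200 genes with a single symbol. A probe set is a group of short probes on an Affymetrix array that are read together as 1 transcript. The other 9 mice, named Con, had no part in the comparison itself. Their values are given as the background level, and their arrays also entered the estimate of the spread. Each standard error and limma p below thus draws on the Con arrays too, unless stated otherwise. The labels do not spell out Con, Veh or Dex. They state no strain, sex, age, dose, route or time for any of the 3 groups, and no genetic change in any of them. Each liver came from 1 mouse and was hybridised to 1 array.

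Read as a drug name, Dex would be dexamethasone, a synthetic glucocorticoid, and Veh its vehicle. This is 1 reading of the names, and the labels do not state it. Glucocorticoids enter cells and bind the glucocorticoid receptor, which moves to the nucleus and binds DNA at paired copies of a short element. In liver the receptor is known for raising enzymes of amino acid breakdown and glucose output, metallothioneins and feedback regulators such as Fkbp5. It is also known for damping inflammatory and interferon-driven genes. Interferons act in part through IRF proteins, which bind repeats of the letters GAAA in the promoters of their targets. The comparison asks which liver transcripts differed between the Dex and Veh mice.

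All levels below are log2 of the deposited intensity, so that 1 unit is a doubling. All changes are Dex minus Veh on that scale with the standard error of the limma fit. That error rests on a spread pooled over the 3 groups, of which Con varied least. The median SD of a probe set stood at 0.375 for Con mice, 0.469 for Veh mice and 0.566 for Dex mice. The pooled errors can therefore understate the spread of the Dex and Veh mice. "Rose" and "fell" are used for genes whose Benjamini-Hochberg adjusted p was under 0.05. The levels of different genes are not compared with each other, because probes differ in brightness. The labelled tissue was checked against its defining markers, and 12 of 15 hepatocyte markers were on the array and bright enough to be tested. Alb, the albumin gene of hepatocytes, lay between 13.7 and 15.1 in Veh and between 13.9 and 15.2 in Dex. In whole liver a lower level can mean fewer cells of a type or less RNA per cell, and these cannot be told apart.

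Several libraries stood apart, and the results have to be read beside them. Dex 1, Dex 2 and Dex 3 lay above the other 15 Dex and Veh mice at 78 of the 6784 tested probe sets. They lay below all of them at 82. Veh 2 and Veh 7 had the highest mean levels of interferon-stimulated genes, 1.34 and 1.92 above the Con mean, where the other Veh mice reached 0.32 at most. Veh 2, Veh 4, Veh 5 and Veh 7 were low in male-biased liver genes, at -3.37, -2.285, -2.22 and -2.48 from the Con mean. The other Veh mice lay between -0.78 and -0.17 there. Dex 1 and Dex 2 stood at -3.19 and -2.28, and Dex 8 and Dex 6 at -1.83 and -1.25. The remaining Dex mice lay between -0.92 and -0.40. The 3' to 5' ratio of the beta-actin control probes, a measure of RNA integrity that rises with degradation, stood at 1.27 ± 0.318 for the Veh arrays, against 0.886 ± 0.169 for the Dex arrays (log2, SD, n = 9 each, two-sided exact permutation test, adjusted p = 0.00457) and 0.947 ± 0.243 for the Con arrays. For Gapdh the Veh arrays stood at 0.50 ± 0.251 and the Dex arrays at 0.237 ± 0.157 (SD, exact permutation adjusted p = 0.0213). The median intensity of the arrays, between 17.6 and 33.3 over all 27, gave an adjusted p of 0.577 by the same exact permutation test. The part of these differences in the results below was not tested beyond the fits given beside them.

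Few transcripts passed the threshold: 18 of the 6784 probe sets (0.265%), of which 3 rose (0.0442%) and 15 fell (0.221%). They stood for 12 named genes and for 6 probe sets without a single symbol. Genes of interferon response and antigen presentation (Isg15, Igtp, Psme1, Psmb8, Cd1d1) made up 5 of the 9 named genes that fell, and Tff3, Sult1d1 and Usf1 were the genes that rose. At an unadjusted p under 0.05 the count was 1029 probe sets (15.2%), 463 higher (6.82%) and 566 lower (8.34%) in Dex. The median change over all probe sets was -0.026. With quantile normalization 15 probe sets passed, 4 higher and 11 lower.

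**Figure D1:**
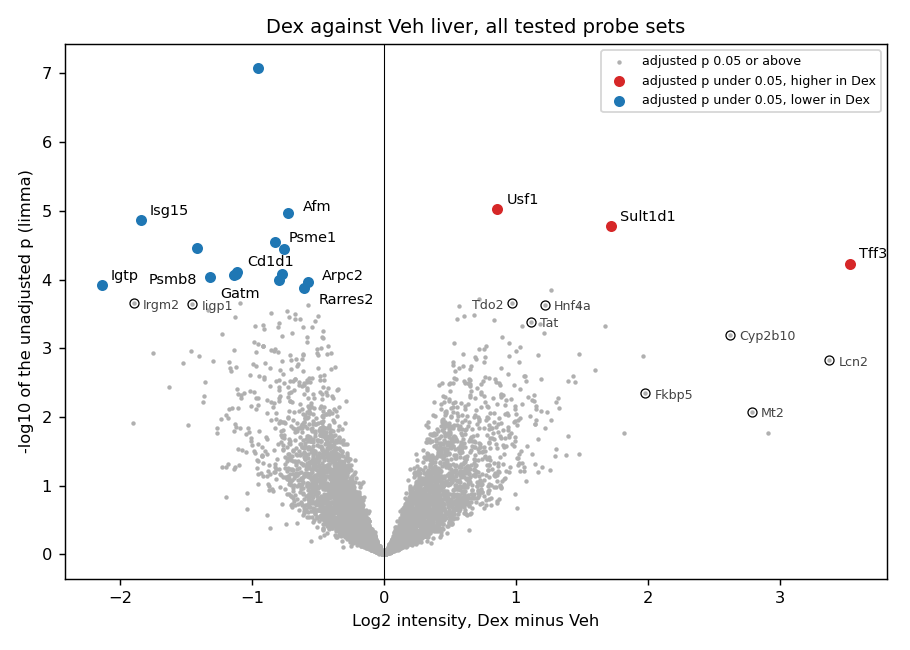
Each point is 1 of the 6784 tested probe sets, with its log2 change (Dex minus Veh) on the horizontal axis and the -log10 of its unadjusted limma p on the vertical axis. The 3 probe sets that rose are red and the 15 that fell are blue, with gene symbols where the annotation gives 1; open circles mark 9 named genes that did not pass. Changes above 2.5 such as Cyp2b10, Lcn2 and Mt2 lie lower on the p axis than the 3 genes that rose.

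The size of that count rested on single mice and on the design of the fit, including whether the Con arrays were part of it. Leaving out Dex 6 gave 124 probe sets, Dex 8 gave 59 and Dex 9 gave 58. Leaving out Dex 5 gave 4, Dex 3 gave 5, and Dex 2, Veh 2 or Veh 5 gave 6. Leaving out Veh 4 or Con 8 gave 8, any of Veh 3, Veh 9, Con 1 and Con 4 to 6 gave 9, and any of Dex 4, Dex 7, Con 2, Con 3 and Con 7 gave 10. The same single probe set, 101515_at, was the 1 that passed when the 18 Dex and Veh arrays were fitted alone, when the beta-actin ratio was a covariate, when Dex 1 to 3 were left out, and when Veh 2 and Veh 7 were left out. In these 4 fits the 12 named genes kept their direction, and their adjusted p lay between 0.0614 and 0.192 in the 18 arrays alone, between 0.316 and 0.387 with the covariate, between 0.0544 and 0.194 without Dex 1 to 3, and between 0.0682 and 0.0995 without Veh 2 and Veh 7 (limma). With the array median as a covariate 111 probe sets passed, among them the 12 named genes.

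Probe set 101515_at, for which the annotation gives no gene symbol, separated the groups most clearly. Its level ran from 9.92 to 10.50 in Veh (median 10.31) and from 8.66 to 9.78 in Dex (median 9.27), between 9.45 and 10.06 in Con. It fell by 0.96 ± 0.14 (SE, n = 9 per group, limma adjusted p = 0.000574). It passed in each of the 27 fits that left out 1 array. Usf1, Afm and Isg15 did so too, with highest adjusted p of 0.0454, 0.0495 and 0.0454 (limma). For 101515_at all 9 Dex mice lay below all 9 Veh mice. Only Afm, among the other tested probe sets, also had groups that did not overlap, so that 2 probe sets (0.0295%) did, both lower in Dex. Without Dex 8 there were 8 such probe sets, without Dex 6 there were 6, without Veh 6 there were 5, and without Dex 9 or Veh 3 there were 4. Without Dex 1 to 3 there were 4, and without Veh 2 and Veh 7 there were 6.

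Of the genes that rose, Tff3, a small secreted trefoil peptide of mucosal surfaces and bile ducts, had the largest change. Its probe set (100106_at) lay between 2.77 and 7.41 in Veh (median 3.79) and between 4.79 and 10.47 in Dex (median 7.85). The rise was 3.53 ± 0.76 (SE, n = 9 per group, limma adjusted p = 0.0440). Veh 8 alone was high at 7.41, and the other 8 Veh mice reached 4.54 at most, below the lowest Dex mouse. Con was as uneven: its median was 3.78, while Con 1, Con 6 and Con 3 stood at 8.29, 7.99 and 6.26. Most Veh values lay not far above the floor of 1.38 that was set on the data, so the size of the change rests on weak signals. Tff3 also passed the brightness filter through the Dex mice, being dim in most Con and Veh mice. It was not tested when a probe set had to exceed the array median in at least 18 of 27 arrays. Without the filter it did not pass the threshold.

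Sult1d1, a cytosolic sulfotransferase, also rose (160537_at). It ran from 5.76 to 7.04 in Veh (median 6.06) and from 5.74 to 9.17 in Dex (median 8.04), against a Con median of 5.79. The change was 1.72 ± 0.34 (SE, n = 9 per group, limma adjusted p = 0.0226). Dex 1 to 3 were among the highest at 8.79 to 9.17, together with Dex 5 at 8.79, and Dex 7 was as low as the lowest Veh mouse. Without Dex 1 to 3 the change was 1.20, and with the beta-actin covariate it was 1.24. Of the 8 tested genes of a sulfotransferase list, Sult1d1 was the 1 that passed, and 5 were higher and 3 lower in Dex.

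Usf1, a basic helix-loop-helix transcription factor that binds E-boxes of liver metabolic genes, rose by 0.86 ± 0.16 (93655_at; SE, n = 9 per group, limma adjusted p = 0.0226). Its level was 6.85 to 7.70 in Veh (median 7.39) and 7.55 to 8.83 in Dex (median 8.18), and the Con median was 7.65. Dex 6 was the lowest Dex mouse and the only 1 inside the Veh range. Leaving out Dex 1 to 3 moved the change little, to 0.84. A second, dimmer Usf1 probe set was 0.33 ± 0.24 higher in Dex and did not pass (adjusted p = 0.514). Its partner Usf2 was 0.51 ± 0.19 higher (adjusted p = 0.181), and each of the 9 Dex mice exceeded the Veh median.

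**Figure D2:**
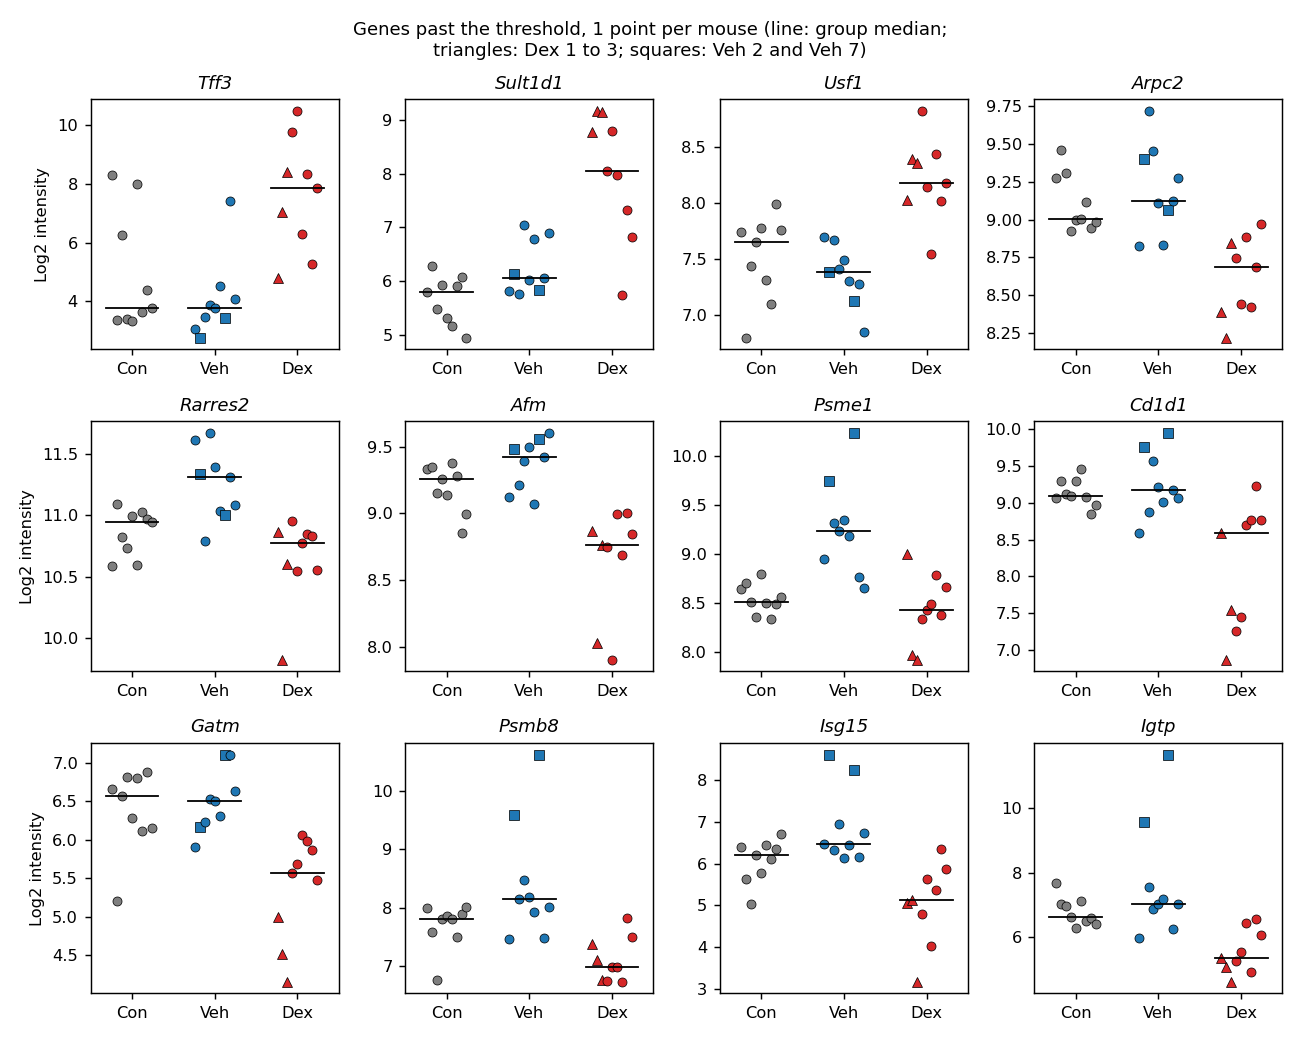
Log2 intensity of the 12 named genes past the threshold, 1 panel per gene and 1 point per mouse, for Con, Veh and Dex (n = 9 each); lines are group medians, triangles are Dex 1 to 3 and squares are Veh 2 and Veh 7. Veh 2 and Veh 7 are the highest Veh mice for Isg15, Igtp, Psmb8, Psme1 and Cd1d1, and Dex 1 to 3 are the lowest Dex mice for Gatm.

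Interferon-stimulated genes made up the list with the lowest median of the 47 lists with at least 4 tested genes. Of its 30 genes 24 were on the array and 11 were tested; all 11 were lower in Dex, with a median change of -0.73 against -0.046 over all 5200 genes. Isg15 and Igtp fell (2 of 11, where 0.231% of all genes passed). At an unadjusted p under 0.05, 7 of the 11 were lower and 0 higher, where 9.15% of all genes were lower and 6.5% higher. Of the 24 genes on the array, the tested ones included, 20 were lower and 4 higher. A gene that was bright only in Veh could pass the brightness filter through Veh, so the tested genes are not all members of the list.

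Isg15, a ubiquitin-like protein that interferon induces, ran from 6.14 to 8.60 in Veh (98822_at; median 6.47) and from 3.19 to 6.33 in Dex (median 5.13), against a Con median of 6.19. It fell by 1.84 ± 0.36 (SE, n = 9 per group, limma adjusted p = 0.0226). Veh 2 and Veh 7 were the highest at 8.60 and 8.24, and the other 7 Veh mice lay between 6.14 and 6.93. Of the 9 Dex mice, 8 lay below every Veh mouse, and Dex 8 at 6.33 was the exception. Without Veh 2 and Veh 7 the change was -1.41.

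Igtp, a GTPase of the family that guards cells against vacuole-dwelling microbes, ran from 5.97 to 11.65 in Veh (160933_at; median 7.03) and from 4.63 to 6.56 in Dex (median 5.37). It fell by 2.13 ± 0.49 (SE, n = 9 per group, limma adjusted p = 0.0487), and the Con median was 6.61. Veh 7 at 11.65 and Veh 2 at 9.56 were far above the other Veh mice, which reached 7.54 at most. Without those 2 mice the change was -1.30. The related GTPases Iigp1 and Irgm2 were lower by similar amounts and did not pass: the changes were -1.45 ± 0.35 and -1.89 ± 0.45 (adjusted p = 0.0597 for both). Without Veh 2 and Veh 7 they were -0.915 and -1.18. For Iigp1, 8 of the 9 Dex mice lay below every Veh mouse, with Veh at 9.77 to 13.74 and Dex at 8.47 to 10.37. Ifi47 was lower by 1.37 ± 0.46 (adjusted p = 0.151). Rsad2, the antiviral protein viperin, was lower by 1.52 ± 0.44 (adjusted p = 0.0977), and Irf9, an interferon regulatory factor, by 1.13 (adjusted p = 0.197). Irf1 was within 0.22 of Veh (change -0.22, adjusted p = 0.705).

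Promoters of Isg15 and Igtp, both of which fell, are shown because they carry the letters that IRF proteins bind. The sequences are the 150 bases before the start of the gene, 5′ to 3′ on the gene's strand, from the RefSeq promoter table (GRCm38.p6), with each match to GAAANNGAAA on either strand in capitals.
Isg15, chr4:156200819-156200968, minus strand: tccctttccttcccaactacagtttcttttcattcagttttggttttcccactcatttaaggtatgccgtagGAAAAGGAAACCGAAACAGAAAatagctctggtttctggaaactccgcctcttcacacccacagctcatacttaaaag
Igtp, chr11:58199406-58199555, plus strand: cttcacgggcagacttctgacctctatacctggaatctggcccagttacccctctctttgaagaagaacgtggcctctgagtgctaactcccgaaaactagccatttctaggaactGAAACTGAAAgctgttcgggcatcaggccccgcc
In Isg15, 3 overlapping matches began 78 to 66 bases before the start, and in Igtp 1 match began 34 bases before it. Over the 300 bases of the table's window (250 before the start and 50 after it), 3 of the 8 tested interferon list genes with an entry held a match (Isg15, Igtp and Irgm1), as did 1079 of 27025 genes in the table (3.99%). A match describes letters and is not evidence of binding.

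Genes of the immunoproteasome and of antigen presentation were lower together. Of 18 genes listed for the immunoproteasome and class I antigen presentation, 13 were on the array and 12 were tested. All 12 were lower in Dex, with a median of -0.63. Of the 13 on the array, the tested ones included, 12 were lower and 1 higher. Psme1, Psmb8 and Cd1d1 fell (3 of 12, where 0.231% of all genes passed). At an unadjusted p under 0.05, 6 of the 12 were lower, where 9.15% of all genes were lower. With Veh 2 and Veh 7 left out the list's median was -0.21, and the interferon list's was -0.40. The list score, the mean log2 level of the members minus the Con mean, reached 1.93 in Veh 7 and 0.96 in Veh 2.

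Psme1, a subunit of the activator cap that opens the proteasome, ran from 8.65 to 10.24 in Veh (101510_at; median 9.23) and from 7.918 to 8.999 in Dex (median 8.43). It fell by 0.83 ± 0.17 (SE, n = 9 per group, limma adjusted p = 0.0308). The Con median of 8.51 was close to that of Dex, and 6 of 9 Dex mice lay below every Veh mouse. Psmb8, a catalytic subunit that interferon puts in place of a constitutive one, ran from 7.46 to 10.62 in Veh (102791_at; median 8.16) and from 6.74 to 7.83 in Dex (median 6.99), against a Con median of 7.82. It fell by 1.32 ± 0.29 (limma adjusted p = 0.0440), and by 0.84 without Veh 2 and Veh 7, where it did not pass (adjusted p = 0.0725). Its 7 lowest Dex mice were below all Veh mice, and Dex 8 and Dex 9 were inside the Veh range.

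Cd1d1, which presents lipids to NKT cells, ran from 8.59 to 9.96 in Veh (103422_at; median 9.18) and from 6.87 to 9.22 in Dex (median 8.58). The fall was 1.12 ± 0.25 (SE, n = 9 per group, limma adjusted p = 0.0440), and the Con median was 9.10. Here the Dex mice were spread: Dex 2, 3, 4 and 5 lay between 6.87 and 7.54, while Dex 6 to 9 overlapped the Veh mice. Tapbp, which holds class I molecules at the peptide transporter, was lower by 0.85 (adjusted p = 0.151) and the transporter gene Tap1 by 0.67 (adjusted p = 0.279). B2m, the light chain of class I molecules, differed by -0.15 (adjusted p = 0.663). The constitutive proteasome gave no such picture: 28 of its 30 subunits were tested, 9 higher and 19 lower, with a median of -0.044. Of the 28, 0 passed the threshold, and 1 had an unadjusted p under 0.05 (3.6%, against 15.7% of all genes).

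The other named genes that fell have roles in metabolism, secretion and the cytoskeleton. Gatm makes guanidinoacetate, the precursor of creatine, and ran from 5.91 to 7.11 in Veh (96336_at; median 6.51) and from 4.15 to 6.06 in Dex (median 5.57). It fell by 1.13 ± 0.25 (SE, n = 9 per group, limma adjusted p = 0.0440), against a Con median of 6.57. Dex 1 to 3 were the lowest at 4.15 to 4.99, and without them the change was -0.73 (adjusted p = 0.194). Gnmt, which methylates glycine and sits in the same methyl group economy, was 0.55 ± 0.14 higher (adjusted p = 0.0635), with 8 of 9 Dex mice above every Veh mouse.

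Afm, afamin, a vitamin E binding plasma protein made by hepatocytes, ran from 9.074 to 9.603 in Veh (94563_at; median 9.42) and from 7.907 to 9.001 in Dex (median 8.77), against a Con median of 9.25. It fell by 0.72 ± 0.14 (SE, n = 9 per group, limma adjusted p = 0.0226). Dex 2 and Dex 5 were the lowest, at 8.03 and 7.907, and the groups did not overlap. Rarres2, the chemoattractant chemerin, ran from 10.79 to 11.67 in Veh (97835_at; median 11.31) and from 9.83 to 10.95 in Dex (median 10.78), and the Con median was 10.95. It fell by 0.60 ± 0.14 (limma adjusted p = 0.0499). Dex 2 was the lowest, and 5 Dex mice lay below every Veh mouse. Arpc2, a core subunit of the complex that branches actin filaments, fell by 0.58 ± 0.13 (93288_at; limma adjusted p = 0.0452), with Veh at 8.82 to 9.72 (median 9.12), Dex at 8.22 to 8.97 (median 8.69) and a Con median of 9.01. Among 20 tested genes of the actin cytoskeleton and thymosins, 8 were higher and 12 lower, with a median of -0.14. Tmsb4x and Tmsb10, small actin-sequestering peptides, were lower by 0.98 ± 0.25 and 0.99 ± 0.29 (adjusted p = 0.0643 and 0.0986).

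Genes induced by glucocorticoids were mostly higher in Dex, and 0 of the 25 tested passed the threshold, where 0.231% of all genes passed. At an unadjusted p under 0.05, 8 were higher and 1 lower, where 6.5% of all genes were higher and 9.15% lower. Of the 25, 21 were higher and 4 lower, with a median of 0.43 against -0.046 over all genes. The list score separated the Dex mice: Dex 1, Dex 2 and Dex 3 stood at 1.98, 2.40 and 2.06, while Dex 4 to 9 lay between -0.24 and 0.51 and Veh between -0.50 and 0.74. Without Dex 1 to 3 the median of the list was -0.10, and without mice 1 to 3 of both groups it was -0.012. Adding the Gapdh ratio to the fit gave 0.91, and adding the beta-actin ratio gave 0.36. Levels in Dex 1 to 3 are therefore given apart where they differ from the rest. Lcn2 also belongs to the acute phase and neutrophil lists, Tat and Tdo2 to that of amino acid breakdown, and Tat to the hepatocyte markers.

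**Figure D3:**
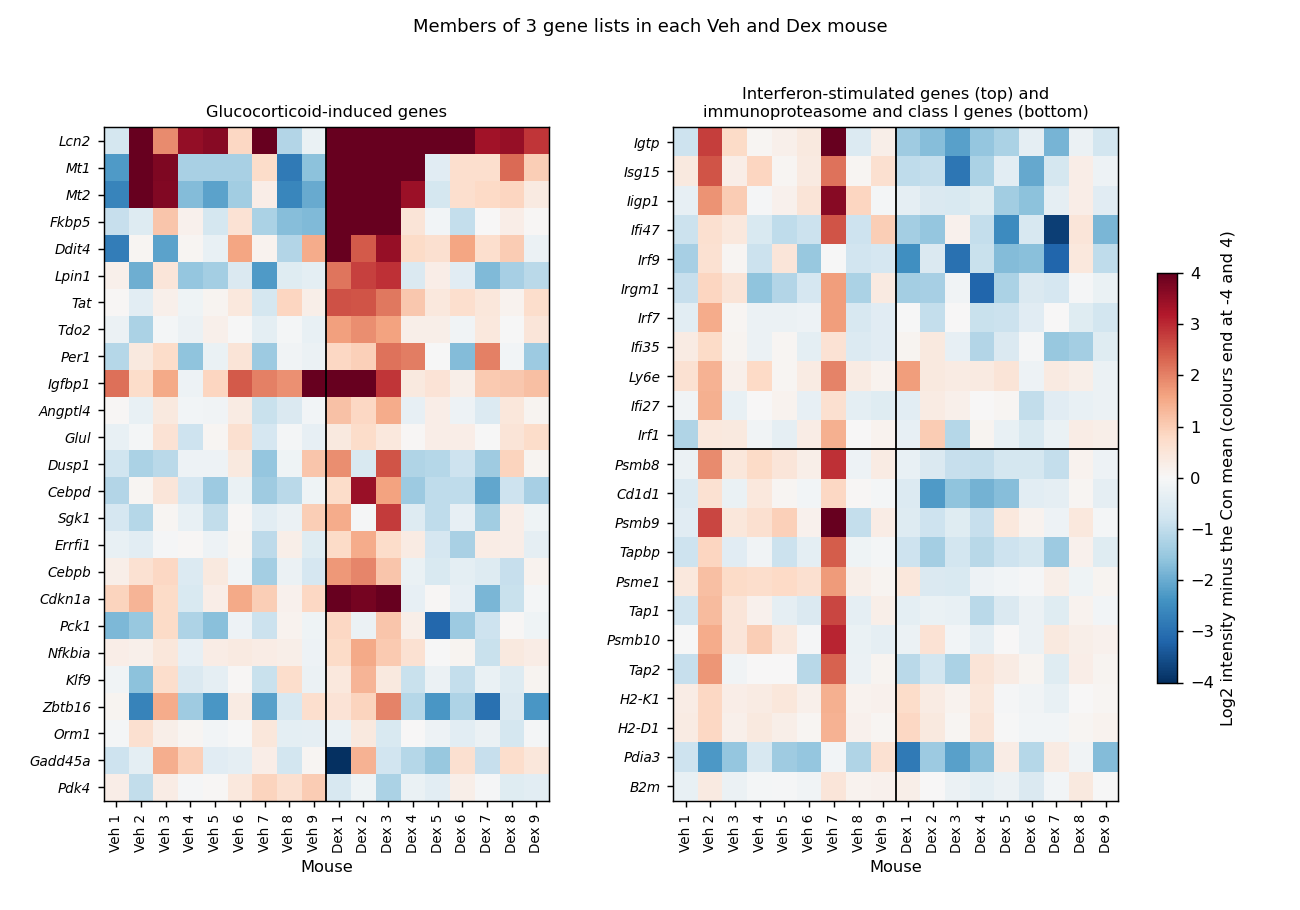
Log2 intensity minus the Con mean for each tested gene (rows) in each Veh and Dex mouse (columns), with 25 glucocorticoid-induced genes at left and 11 interferon-stimulated over 12 immunoproteasome and class I genes at right; red is above Con, blue below, and colours end at -4 and 4. Dex 1 to 3 form a red block at left, with Fkbp5, Tat and Tdo2 closer to the Con level in Dex 4 to 9, and Veh 2 and Veh 7 form red columns at right.

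Tat, tyrosine aminotransferase, a textbook glucocorticoid-induced enzyme of liver, ran from 10.69 to 12.24 in Veh (median 11.50) and from 11.54 to 13.94 in Dex (median 12.09), and the Con median was 11.53. The change was 1.12 ± 0.28 (SE, n = 9 per group, limma adjusted p = 0.0643). Dex 1 to 3 lay between 13.50 and 13.94, above every other mouse of both groups, and Dex 4 to 9 between 11.54 and 12.46. Tdo2, the first enzyme of tryptophan breakdown, was 0.97 ± 0.23 higher (adjusted p = 0.0597), with Veh at 11.34 to 12.81, Dex 1 to 3 at 14.22 to 14.47 and Dex 4 to 9 at 12.46 to 13.09. Both were above the Veh median in all 9 Dex mice.

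Fkbp5, the co-chaperone that holds the receptor in a low-affinity state, showed a wide gap within Dex. It stood at 10.90 to 11.53 in Dex 1 to 3 and at 5.88 to 7.34 in Dex 4 to 9, with Veh at 5.05 to 7.95 (median 6.12) and a Con median of 6.99. The change over all mice was 1.98 ± 0.65 (adjusted p = 0.139), and without Dex 1 to 3 it was 0.52. Ddit4, an inhibitor of mTORC1 signalling, was 1.97 ± 0.56 higher (adjusted p = 0.0892), with Dex 1 to 3 at 6.67 to 8.51 and the other Dex mice at 3.95 to 5.77, next to Veh at 1.43 to 5.77.

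The metallothioneins Mt1 and Mt2, which bind zinc and are induced by metals, glucocorticoids and inflammation, were higher by 2.92 ± 1.16 and 2.79 ± 0.99 (adjusted p = 0.219 and 0.174). Mt2 lay between 13.38 and 14.68 in Dex 1 to 3 and between 8.05 and 12.18 in Dex 4 to 9. In Veh it lay between 6.13 and 13.15 with a median of 7.01, and Veh 2 and Veh 3, at 13.15 and 12.48, were above all of Dex 4 to 9 and below Dex 1 to 3. In Con it ran from 6.78 to 11.96. The groups thus overlapped.

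Other members differed less. Igfbp1, which binds insulin-like growth factors, differed by 0.64 ± 0.83 (adjusted p = 0.738), and the difference turned to -0.997 without Dex 1 to 3 and to -0.079 without Dex 2 alone, which stood at 12.01. Pck1, the enzyme that commits carbon to gluconeogenesis, differed by 0.33 ± 0.45 (adjusted p = 0.754) and by -0.16 without Dex 1 to 3. Per1, a clock gene that glucocorticoids induce, was 0.88 ± 0.52 higher (adjusted p = 0.412). Pdk4, which holds back pyruvate oxidation, was lower by 0.67 (adjusted p = 0.308). Among the receptor's chaperones and Hsd11b1, 9 were tested; 5 were higher and 4 lower, with a median of 0.07.

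Sgk1, a kinase of salt handling, is shown for its promoter, since it was the 1 list gene with the full paired element of the receptor, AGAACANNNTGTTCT. The letters below are from the RefSeq promoter table (GRCm38.p6), 250 to 101 bases before the start, with the match in capitals.
Sgk1, chr10:21993640-21993789, plus strand: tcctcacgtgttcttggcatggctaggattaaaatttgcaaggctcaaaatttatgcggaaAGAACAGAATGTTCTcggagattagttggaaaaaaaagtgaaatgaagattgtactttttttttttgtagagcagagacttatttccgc
This element reads the same on both strands, and it was found in 3 of 27025 promoters (0.0111%) and in 1 of the 21 tested list genes with an entry. The single site AGAACA, which the paired element contains, was in 21.3% of promoters and in 2 of the 21 genes, Sgk1 and Lpin1. Sgk1 itself, chosen here after its values were seen, differed by 0.41 ± 0.38 (limma adjusted p = 0.619). It ran from 4.37 to 6.48 in Veh and from 4.13 to 8.30 in Dex, the highest being Dex 3.

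Enzymes of nitrogen disposal were divided. Of 8 tested genes of the urea cycle and nitrogen handling, 6 were higher and 2 lower in Dex, with a median of 0.34. An unadjusted p under 0.05 was seen for 5 of the 8 (3 higher, 2 lower), against 15.7% of all genes. Cps1, the first step of the urea cycle, was 0.60 ± 0.18 higher (limma adjusted p = 0.102), with Veh at 12.52 to 13.12, Dex 1 to 3 at 13.61 to 14.12 and Dex 4 to 9 at 12.52 to 13.88. Asl, which cleaves argininosuccinate, was 0.73 higher (adjusted p = 0.257). Glud1, which frees ammonia from glutamate, was 0.55 ± 0.19 lower (adjusted p = 0.162), and Otc was 0.34 lower (adjusted p = 0.227). Glul, glutamine synthetase, was 0.48 ± 0.18 higher (adjusted p = 0.203), while its second probe set was 0.52 ± 0.21 lower (adjusted p = 0.226). Without Dex 1 to 3 the list median was 0.004. In amino acid breakdown 6 genes were higher and 8 lower. Besides Tat and Tdo2, Bckdhb of the branched-chain keto acid dehydrogenase was 0.50 ± 0.14 lower (adjusted p = 0.0881).

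Among 18 tested targets of the xenobiotic receptors PXR and CAR, 9 were higher and 9 lower in Dex, and 0 passed the threshold. An unadjusted p under 0.05 was seen for 8 (44.4%, against 15.7% of all genes), 5 higher and 3 lower. Cyp2b10, the cytochrome P450 that marks CAR activity, ran from 3.07 to 7.90 in Veh (median 7.28) and from 6.85 to 12.34 in Dex (median 8.49), against a Con median of 5.07. The change was 2.63 ± 0.69 (SE, n = 9 per group, limma adjusted p = 0.0739). Dex 1 to 3 lay between 11.80 and 12.34 and Dex 4 to 9 between 6.85 and 9.74, which overlapped Veh. Without Dex 1 to 3 the change was 1.21 and without mice 1 to 3 of both groups 0.43. Cyp2b10 also belongs to a list of female-biased liver genes, of which 6 were tested, 4 higher and 2 lower, with a median of 0.46. The score of that list against the Con mean was 2.80 to 4.94 in Dex 1 to 3 and 1.37 to 3.57 in Dex 4 to 9. In Veh it was 0.26 to 3.56. Which of these lists the change belongs with was not tested. Cyp3a11, the main PXR-induced P450 of mouse liver, differed by 0.23 ± 0.15 (adjusted p = 0.470).

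Gstm2 and Gstm3, 2 glutathione transferases of the mu class, were higher without passing the threshold. Gstm2 was 1.22 ± 0.32 higher (limma adjusted p = 0.0738), with Veh at 6.64 to 9.15 (median 7.23) and Dex at 6.597 to 9.57 (median 8.67). Veh 2, at 9.15, and Dex 2, at 6.597, each lay on the other group's side, and the remaining 8 Dex mice lay above the remaining 8 Veh mice. Gstm3 was 1.03 ± 0.28 higher (adjusted p = 0.0881), and its second probe set 1.48 ± 0.36 (adjusted p = 0.0597). Other genes of glutathione and of NRF2, the oxidative stress factor, were mostly lower: of 24 tested, 5 were higher and 19 lower, with a median of -0.19. Gclc, which sets the rate of glutathione synthesis, was 0.64 ± 0.23 lower (adjusted p = 0.171), and Gstt2 was 0.56 ± 0.20 lower (adjusted p = 0.174).

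Fatty acid oxidation genes and PPARA targets were mostly lower in Dex: 22 of 26 tested were lower and 4 higher, with a median of -0.34. At an unadjusted p under 0.05, 9 of the 26 were lower (34.6%), where 9.15% of all genes were lower. Decr1, needed to oxidise unsaturated fatty acids, was 0.83 ± 0.23 lower (limma adjusted p = 0.0881), with Veh at 7.84 to 8.64 and Dex at 6.22 to 8.17. Acaa1b, a peroxisomal thiolase, was 0.97 ± 0.27 lower (adjusted p = 0.0881), with Veh at 12.31 to 13.32 and Dex at 10.202 to 12.95. In that gene Veh lay above Con, whose median was 11.97, and the Dex median of 12.19 lay between them. The list score showed the same order, with medians of 0.58 in Veh and 0.21 in Dex. Cyp4a14, an omega hydroxylase and PPARA target, went the other way, 1.17 ± 0.60 higher (adjusted p = 0.354). Ppara itself was 0.62 ± 0.24 lower (adjusted p = 0.205).

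Other lipid pathways differed less. Of 13 lipogenic genes 3 were higher and 10 lower, with a median of -0.13, and Fasn differed by -0.35 (limma adjusted p = 0.689). Of 16 cholesterol synthesis genes 11 were higher and 5 lower, with a median of 0.22. That median was 0.55 without Dex 1 to 3 and -0.025 with the beta-actin covariate. Fdps and Mvk of the mevalonate pathway were 0.69 and 0.55 higher (adjusted p = 0.179 and 0.162). Of 15 bile acid genes 6 were higher and 9 lower; Hsd3b7, an early step of bile acid synthesis, was 0.67 ± 0.21 lower (adjusted p = 0.118), with Dex 1 to 3 at 8.527 to 9.600 and the other Dex mice at 10.12 to 10.71. Pltp, the phospholipid transfer protein, was 1.63 ± 0.52 lower (adjusted p = 0.124), with Dex from 4.50 in Dex 2 to 11.03 in Dex 1. Apoa4, a lipoprotein of lipid export, was 0.89 ± 0.29 higher (adjusted p = 0.139).

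Of 28 tested complement and coagulation genes 24 were lower and 4 higher, with a small median of -0.20. F13b, the carrier subunit of the clot-stabilising factor, was 0.58 ± 0.16 lower (limma adjusted p = 0.0762), with Veh at 8.41 to 9.12 and Dex at 7.61 to 8.88. C2 was 0.58 ± 0.19 lower (adjusted p = 0.144), and Mbl2, a mannose-binding lectin that starts the complement cascade, 0.57 ± 0.20 (adjusted p = 0.162). The list scores overlapped, at -0.17 to 0.073 in Veh and -0.40 to -0.05 in Dex. The acute phase list was mixed, 12 higher and 8 lower of 20, with a median of 0.18. Hp, haptoglobin, was 0.55 ± 0.21 higher (adjusted p = 0.199). Itih4 was 0.54 ± 0.22 lower (adjusted p = 0.232).

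Lcn2, a siderophore-binding protein of both neutrophils and inflamed hepatocytes, was 3.38 ± 0.97 higher without passing (limma adjusted p = 0.0943), next to Tff3 in size among the named genes. It ran from 3.67 to 11.40 in Veh (median 6.71) and from 7.70 to 12.91 in Dex (median 10.60), with a Con median of 3.85. Veh 2 and Veh 7, at 11.40 and 10.18, and Veh 4 and Veh 5, at 8.35 and 8.46, lay among the Dex mice. Its second probe set was 0.60 ± 0.27 higher (adjusted p = 0.275). The other tested neutrophil markers were higher too, Ly6g by 0.84 ± 0.26 and Camp by 0.88 ± 0.32 (adjusted p = 0.118 and 0.187). In all, 5 of 15 listed neutrophil genes were tested and 5 were higher. Of the 14 on the array 12 were higher, but the defining granule genes S100a8 and S100a9 were dim, with means of 4.15 and 3.32 in Veh and 3.89 and 3.73 in Dex.

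Macrophage and Kupffer cell markers were lower: of 24 listed, 22 were on the array and 19 were tested, all 19 lower in Dex with a median of -0.44. At an unadjusted p under 0.05, 4 of the 19 were lower (21.1%), where 9.15% of all genes were lower. The threshold was passed by 0 of the 19, where 0.231% of all genes passed. Mpeg1, a pore-forming protein of phagocytes, was 1.35 ± 0.42 lower (limma adjusted p = 0.118), with Veh at 5.76 to 10.89, Veh 7 the highest, and Dex at 5.70 to 6.95. Ctss, a lysosomal protease of antigen-presenting cells, was 1.017 ± 0.309 lower (adjusted p = 0.118), and Cd5l, secreted by tissue macrophages, 0.91 ± 0.28 (adjusted p = 0.118). Clec4f, a Kupffer cell marker, was 0.36 lower (adjusted p = 0.468), and Adgre1, a general mouse macrophage marker, 0.26 (adjusted p = 0.838). The list score ran from -0.89 to 0.88 in Veh and from -0.98 to 0.11 in Dex. The median was -0.29 without Veh 2 and Veh 7.

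MHC class II genes showed a like picture with fewer members. Of 7 tested, 5 were lower and 2 higher, with a median of -0.62 that was -0.28 without Veh 2 and Veh 7. H2-Aa, a class II alpha chain, was 1.75 ± 0.49 lower (limma adjusted p = 0.0881), with Veh at 6.22 to 9.47 and Dex at 3.32 to 7.25. Cd74, the invariant chain, was 1.06 ± 0.35 lower (adjusted p = 0.136). H2-Eb1 differed by 0.043 (adjusted p = 0.976). The macrophage, class II, interferon and class I lists thus shared the same 2 highest Veh mice, and the part of those mice in the results was not tested beyond the medians given without them.

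**Figure D4:**
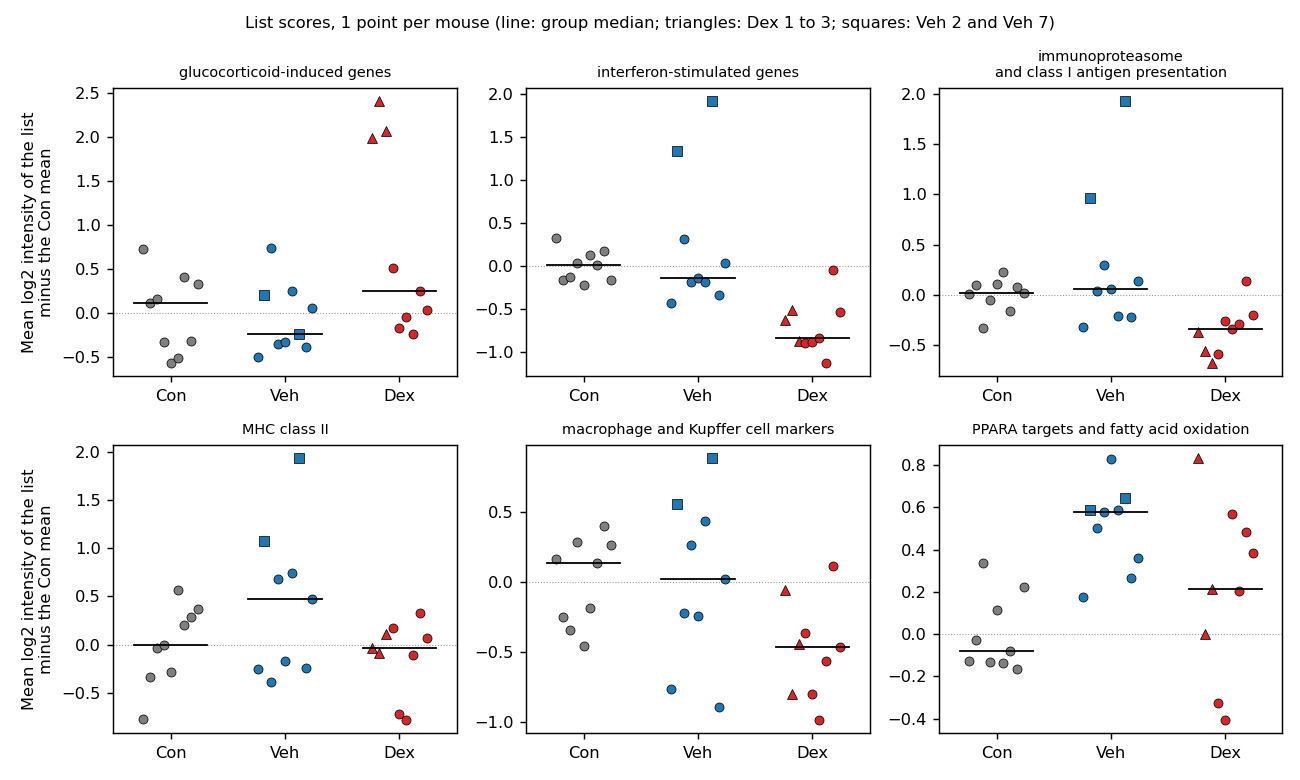
Score of 6 gene lists in each mouse, as the mean log2 intensity of the tested members minus the mean of the 9 Con mice, for Con, Veh and Dex (n = 9 each); lines are group medians, triangles are Dex 1 to 3 and squares are Veh 2 and Veh 7. Triangles stand at 1.98 to 2.40 in the glucocorticoid panel, and squares are the top Veh points of the interferon, class I, class II and macrophage panels.

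Markers of other cells of the liver or its surroundings had no single direction. Of 9 endothelial markers 6 were lower and 3 higher, with Cdh5 0.54 ± 0.21 lower (limma adjusted p = 0.211). T and NK cell markers were too dim, with 2 of 16 genes on the array tested. Of 7 B cell markers 6 were higher, with 0 at an unadjusted p under 0.05. Of 7 bile duct markers 2 were higher and 5 lower, with a median of -0.04. The 2 higher ones were Tff3, which rose, and Cdh1, the cadherin of epithelia. Cdh1 was 0.72 ± 0.17 higher (limma adjusted p = 0.0597), and the 9 Dex mice exceeded the Veh median. Krt18, a keratin of hepatocytes and ducts, was 0.85 ± 0.24 lower (adjusted p = 0.0881). The duct markers Krt19 and Epcam stood near the floor of 1.38 in both groups, with means of 1.80 and 1.94 in Veh and 1.505 and 2.602 in Dex. Exocrine pancreas genes were slightly higher, 6 of 7, Cela2a by 0.76 ± 0.22 (adjusted p = 0.0958) and Amy1 by 0.49 ± 0.17 (adjusted p = 0.149). Car3, a carbonic anhydrase of fat and of liver, was 1.15 ± 0.40 lower (adjusted p = 0.162), with Dex 2 alone at 7.41 and the other 8 Dex mice at 11.16 or more.

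Regulators of liver genes were more often higher over all 18 mice. Of 17 liver transcription factors 12 were higher and 5 lower, with a median of 0.28. Without Veh 2 and Veh 7 that median was 0.024. Hnf4a, a nuclear receptor that maintains hepatocyte identity, was 1.22 ± 0.29 higher (limma adjusted p = 0.0597). It ran from 6.13 to 7.58 in Veh and from 6.89 to 9.34 in Dex, with a Con median of 8.15, and 7 Dex mice lay above every Veh mouse. Adding the beta-actin ratio to the fit gave 0.77. Xbp1, a factor of secretory capacity, was 0.78 ± 0.31 lower (adjusted p = 0.210), and the amino acid stress target Asns 0.77 ± 0.23 higher (adjusted p = 0.118). Gadd45b, a stress-induced gene, was 1.82 ± 0.72 higher (adjusted p = 0.218), again with Dex 1 to 3 at 7.26 to 8.83 and the other Dex mice at 4.72 or less.

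Housekeeping groups differed little. Cytosolic ribosomal protein genes were nearly all slightly higher, 24 of 25 tested, with a median of 0.17 that was 0.041 without Dex 1 to 3, and 0 of the 25 had an unadjusted p under 0.05. Of 43 genes of the mitochondrial respiratory chain 14 were higher and 29 lower, with a median of -0.041. Heme synthesis was split between its first enzymes: Alas1, the hepatocyte form, was 0.88 ± 0.36 higher (limma adjusted p = 0.226), and Alas2, the red cell form, 1.49 ± 0.56 lower (adjusted p = 0.199). The cytoskeletal reference gene Actb differed by 0.36 ± 0.46 (adjusted p = 0.731). The remaining large differences that missed the threshold were in dim genes: Mllt3, Tro and Stmn3 were 1.45, 1.44 and 1.39 higher, and Nicn1 and Cdc42se2 differed by -1.458 and -1.397 (adjusted p from 0.0881 to 0.118).

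**Figure D5:**
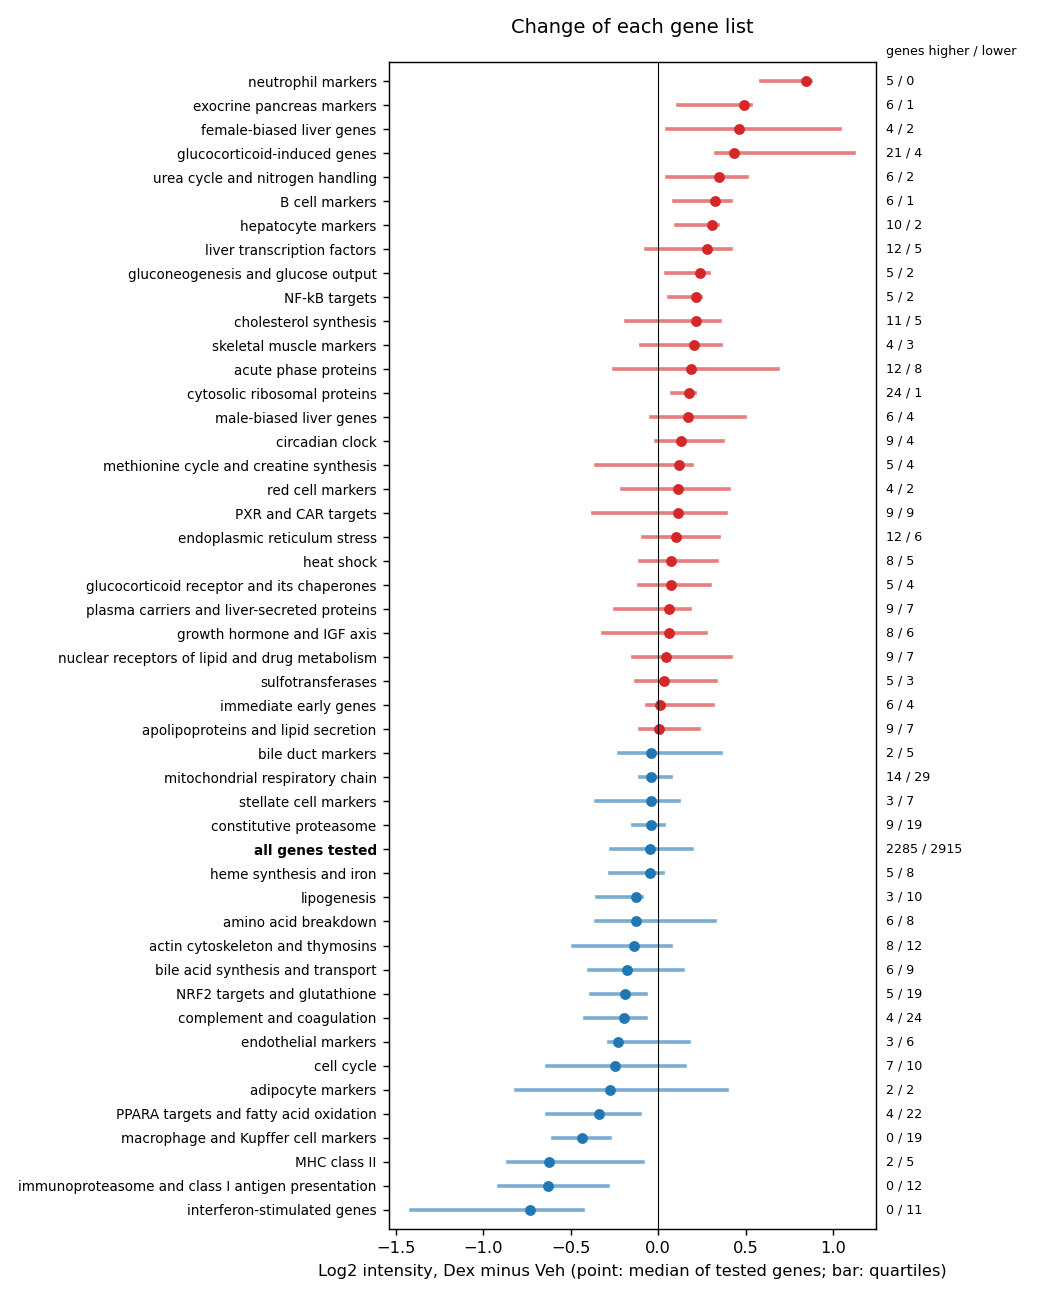
Median log2 change, Dex minus Veh, of the tested genes in each of 47 lists (points) with their quartiles (bars), and the numbers of genes higher and lower at right; all 5200 genes tested are shown in bold type for comparison. Neutrophil markers have the highest median (0.84, 5 genes) and interferon-stimulated genes the lowest (-0.73, 11 genes), while the median of all genes is -0.046.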

How the data were processed

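Liver RNA of 27 mice was measured on 27 Affymetrix MG_U74Av2 arrays. Per the labels' protocols, total RNA came from Trizol extraction and RNeasy clean-up and was checked on a Bioanalyzer and labelled with standard Affymetrix steps. The authors deposited 1 linear intensity per probe set and array; trimmed means near 100.1 show scaling by array. No source used here names the software that summarised the probes. Intensities under the 10th percentile of positive values (2.6) were raised to that value before log2 was taken. Probe sets above the array median in at least 9 of 27 arrays were tested with limma 3.58.1 in R 4.3.3 (group means of all 27 arrays, 24 residual degrees of freedom, two-sided moderated test by eBayes, with a mean trend; p adjusted by Benjamini-Hochberg for 6784 probe sets); the script was tested on simulated data. Where a gene had several tested probe sets, the brightest stood for it.

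Symbols came from the platform annotation, which gives 1 symbol for 10855 probe sets, several for 396 and none for 1237; 10839 were matched to a reference gene table by gene number. The 48 gene lists (980 genes, 591 tested) and the comparison were chosen with earlier results of these data known, so no list is independent evidence. Named genes were those past the threshold, the 8 largest rises and falls with unadjusted p under 0.01 that did not pass, the 3 members at most of smallest p in lists of at least 4 tested genes with an excess of unadjusted p under 0.05, and a fixed set (Tat, Pck1, Fkbp5, Per1, Igfbp1, Mt1, Mt2, Cyp3a11, Alb, Actb; Tsc22d3, Nr3c1 and Gapdh had no tested single-symbol probe set). Other list members are quoted from the lists. Alternatives are in the closing section. An array has no read depth; its precision is limited by the number of arrays and by dim signals.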

Additional observations from a re-analysis of the deposited data

Results flagged for a closer look

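Within the 9 Veh or 9 Dex mice, 20 of 204 sets of values for the named genes had 1 mouse far from the other 8, by Dixon's test at its 95% level. Chance alone gives about 1 in 20 such sets, and the genes share mice. Values are log2 intensities, with the nearest other mouse in brackets.

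Veh 2 was the far mouse for Tdo2, the lowest at 11.344 (12.21), and for Gstm2 at 9.151 (7.684), Cyp17a1 at 6.764 (5.198) and Krt18 at 10.069 (9.042), the highest in each. Veh 3 was the lowest for Cyp2b10 at 3.07 (5.65), Hsd3b7 at 9.964 (10.573) and Clps at 4.248 (5.45), and the highest for Gadd45b at 5.812 (3.973). Veh 7 was the highest for Mpeg1 at 10.892 (8.253) and the lowest for Amy1 at 9.795 (10.25). Veh 8 was the highest for Tff3 at 7.406 (4.536). Veh 9 was the lowest for Alas1 at 7.189 (9.778), and Veh 5 for Klf1 at 2.561 (4.638).

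In Dex, mouse 2 was the lowest for Rarres2 at 9.825 (10.543), Gstm2 at 6.597 (8.394) and Car3 at 7.408 (11.16). Dex 5 was the lowest for Mbl2 at 7.844 (8.963) and Clps at 4.802 (5.835). Dex 7 was the lowest for Mcm7 at 2.722 (4.186), and Dex 9 for Camp at 4.728 (5.805).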

How the results depend on the processing

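The count of 18 probe sets past the threshold was 7 without the filter on dim probe sets, 1 with the 18 Dex and Veh arrays alone, 1 with beta-actin as a covariate, 111 with the array median as a covariate, 4 with array weights, 5 without the mean trend, 1 without Dex 1 to 3, 4 without Dex and Veh 1 to 3, and 1 without Veh 2 and Veh 7, a setting chosen after seeing the data. It was 15 to 19 with quantile normalization, floors at percentiles 1 and 20 and a stricter filter, 14 with the Gapdh ratio as a covariate, and 4 to 124 when 1 array was left out. The count of 2 probe sets without overlap was 4 without Dex 1 to 3, 22 without Dex and Veh 1 to 3, 6 without Veh 2 and Veh 7, and 2 to 8 when 1 array was left out. With the replicate number as a block 3 probe sets passed. The deviations of mice with the same number correlated at -0.087 to 0.181, over 0.1 in 3 of 9 pairs, and 3 Dex arrays correlated best with their own number, so the numbers were not taken as pairs. Why the counts moved was not tested.

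Of the named genes, Igfbp1 (0.64) and Pck1 (0.33) turned to -0.997 and -0.156 without Dex 1 to 3 and to -1.128 and -0.217 without Dex and Veh 1 to 3, and Igfbp1 to -0.079 without Dex 2, the lowest of its values with 1 array left out (highest 0.956); the cause was not tested. Under all settings but those that leave out 1 array, the named genes had 1619 values. Of these, 4 turned in sign, 114 lost their place past the threshold and 21 gained one. The exact permutation test was 1 of these settings and held 9 of the 114 and 1 of the 21. Only the 12 named genes past the threshold could lose that place, so the 114 are not to be read against 1619. Of these 12 genes, 0 passed with the Dex and Veh arrays alone or with the beta-actin covariate. The same 0 passed without Dex 1 to 3, without Dex and Veh 1 to 3, and without Veh 2 and Veh 7. Signals near the floor, as for Tff3 in Veh, limit the size of a change.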
